A study of Mus musculus with 20 samples.

Results

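Gamma-aminobutyric acid (GABA) is the main inhibitory transmitter of the neocortex, and 32 genes of its synthesis, release, reception and of the interneurons that use it were followed across age and vitamin E supplementation in mouse neocortex. The genes were taken by name: 11 receptor subunits, 5 genes of synthesis, vesicle loading, uptake and breakdown, 3 genes of the postsynaptic scaffold and of chloride transport, 6 markers and effectors of interneurons, and 7 transcription factors of the interneuron lineage. Of the 32, 31 were represented by a probe set that the platform annotation gives to that 1 gene, with 80 probe sets among them, and Gabbr2, the second subunit of the GABA-B receptor, had no match and is not analysed here. The brightest probe set of each gene was read, and 30 genes lay in the brightest 60% of probe sets and were tested among 13351 genes in all. The remaining one, Erbb4, the neuregulin receptor of interneurons, had signals between 6.3 and 73.6, below the limit of 184, and the nearest tested gene above that limit was Gabrg3, with signals of 141 to 291.

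Neocortex was taken from 20 male B6C3F1 mice, a first-generation cross between B6 and C3H, housed singly, with one oligonucleotide array per mouse and 5 mice in each of 4 groups. The young controls were 5 months old and the old controls 30 months old, and neither received a supplement beyond the control diet. The supplemented groups, also 30 months old, were given vitamin E from 15 months on. One received α-tocopherol at 1000 mg/kg, and the other both α- and γ-tocopherol (the mixture) at 500 mg/kg each. All values are array signals on a linear scale, in units that can be compared between mice for 1 probe set but not between genes. Differences are given on the log2(signal + 16) scale as difference ± standard error, tested with limma over all genes, and a gene was called at a Benjamini-Hochberg adjusted p below 0.05.

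GABA is made from glutamate by 2 decarboxylases, encoded by Gad1 and Gad2, and loaded into vesicles by the transporter encoded by Slc32a1. It acts on GABA-A receptors, chloride channels assembled from several subunits whose identity sets where the receptor sits and how it responds, and on GABA-B receptors, which signal through G proteins. Whether an open GABA-A channel inhibits a neuron depends on its internal chloride, which Slc12a2 raises and Slc12a5 lowers. Cortical interneurons arise mostly from the ventral forebrain under transcription factors of the Dlx family, with Lhx6, Sox6 and Maf acting in the branch that gives the parvalbumin cells.

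The proximal promoters of 4 genes that the results turn on are printed here to show how differently these genes are built upstream of their starts, each as the 250 bases before the annotated start on the gene's own strand in RefSeq's GRCm38.p6. Capitals mark matches, on either strand, to the TATA box letters TATAAA or the GC box letters GGGCGG. Gabra3 is at chrX:72656920-72657169 on the minus strand, Gabbr1 at chr17:37045716-37045965 on the plus strand, Pvalb at chr15:78206401-78206650 on the minus strand and Slc12a5 at chr2:164960596-164960845 on the plus strand.
Gabra3: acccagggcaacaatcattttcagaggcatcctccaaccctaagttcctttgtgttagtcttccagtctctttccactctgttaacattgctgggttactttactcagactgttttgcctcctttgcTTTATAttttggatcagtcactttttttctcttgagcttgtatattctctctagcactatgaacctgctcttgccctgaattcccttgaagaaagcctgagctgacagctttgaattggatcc
Gabbr1: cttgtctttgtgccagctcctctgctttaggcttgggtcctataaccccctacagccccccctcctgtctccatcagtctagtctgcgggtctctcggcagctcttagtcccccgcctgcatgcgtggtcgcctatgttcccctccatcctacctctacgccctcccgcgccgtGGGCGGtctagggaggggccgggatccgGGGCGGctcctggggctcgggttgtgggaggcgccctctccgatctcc
Pvalb: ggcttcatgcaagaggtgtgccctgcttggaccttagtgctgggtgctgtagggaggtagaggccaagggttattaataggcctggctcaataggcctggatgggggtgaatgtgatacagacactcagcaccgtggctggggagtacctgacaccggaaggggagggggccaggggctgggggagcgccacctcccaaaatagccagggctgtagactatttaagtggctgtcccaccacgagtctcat
Slc12a5: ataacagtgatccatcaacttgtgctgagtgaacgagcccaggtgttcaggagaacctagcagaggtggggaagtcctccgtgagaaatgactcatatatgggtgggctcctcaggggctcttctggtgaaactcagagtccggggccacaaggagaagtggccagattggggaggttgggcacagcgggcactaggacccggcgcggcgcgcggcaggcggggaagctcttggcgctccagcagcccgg
The stretch before Gabra3 holds 1 TATA box match and no GC box, that before Gabbr1 holds 2 GC box matches and no TATA box, and those before Pvalb and Slc12a5 hold neither set of letters. Of the 32 genes, 24 were found in the promoter table, each with the promoter listed nearest to its annotated start. The 4 printed here lie at that start, but some of the others do not, such as those of Gabra5 (80957 bases away) and Gphn (9330). TATAAA stood in 3 of these 24 (12.5%), against 12.4% of all 17492 promoters of the same length, and GGGCGG in 12 (50%), against 42.7%. The E-box letters CANNTG stood in 14 (58.3%, against 62.7%), the homeodomain letters TAATTA in 1 (4.17%, against 4.46%), and the cyclic AMP response element TGACGTCA in 0 (against 1.98%). None of these 5 motifs contains another, and a match describes letters only. The median GC content was 61.4% in the 24 promoters and 55.2% in all promoters.

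Several of the genes are neighbours in the genome. Gabrg1 and Gabra2 lie next to each other on chromosome 5, with Gabra4 beyond 1 further coding gene, and Gabra4 and Gabrb1 are adjacent there on opposite strands, with annotated starts that overlap by 388 bases. Gabrg3 and Gabra5 are adjacent on chromosome 7, Dlx1 and Dlx2 on chromosome 2, and Dlx6 and Dlx5 on chromosome 6.

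With age, 8 of the 30 tested genes were higher, 1 was lower and 21 were not called. The 9 calls are 30% of the tested genes, against 22.8% of all genes tested (12.4% higher and 10.4% lower). The higher genes were the receptor subunits Gabra3, Gabrb1, Gabrd and Gabbr1, the vesicular transporter Slc32a1, the chloride importer Slc12a2, the calcium-binding protein Pvalb and the transcription factor Sox6, and the lower gene was the receptor subunit Gabra4. All were small, from 1.15 times to 1.29 times, and both decarboxylases were uncalled. The median difference over the 30 genes was 0.08, against −0.02 over all genes, with 20 differences above 0 and 10 below. The groups did not overlap for 3 genes that were higher in every old mouse (Gabra3, Slc32a1 and Slc12a5) and 2 that were lower in every old mouse (Gabrb2 and Gphn). These 5 genes compare with 16.6% of all genes (9.14% higher and 7.42% lower in every old mouse). An unadjusted limma p below 0.05 was found for 13 of the 30, against 36.7% of all genes. The share of genes called was thus near that of all genes, and nothing particular to GABA genes is read from it.

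**Figure D1:**
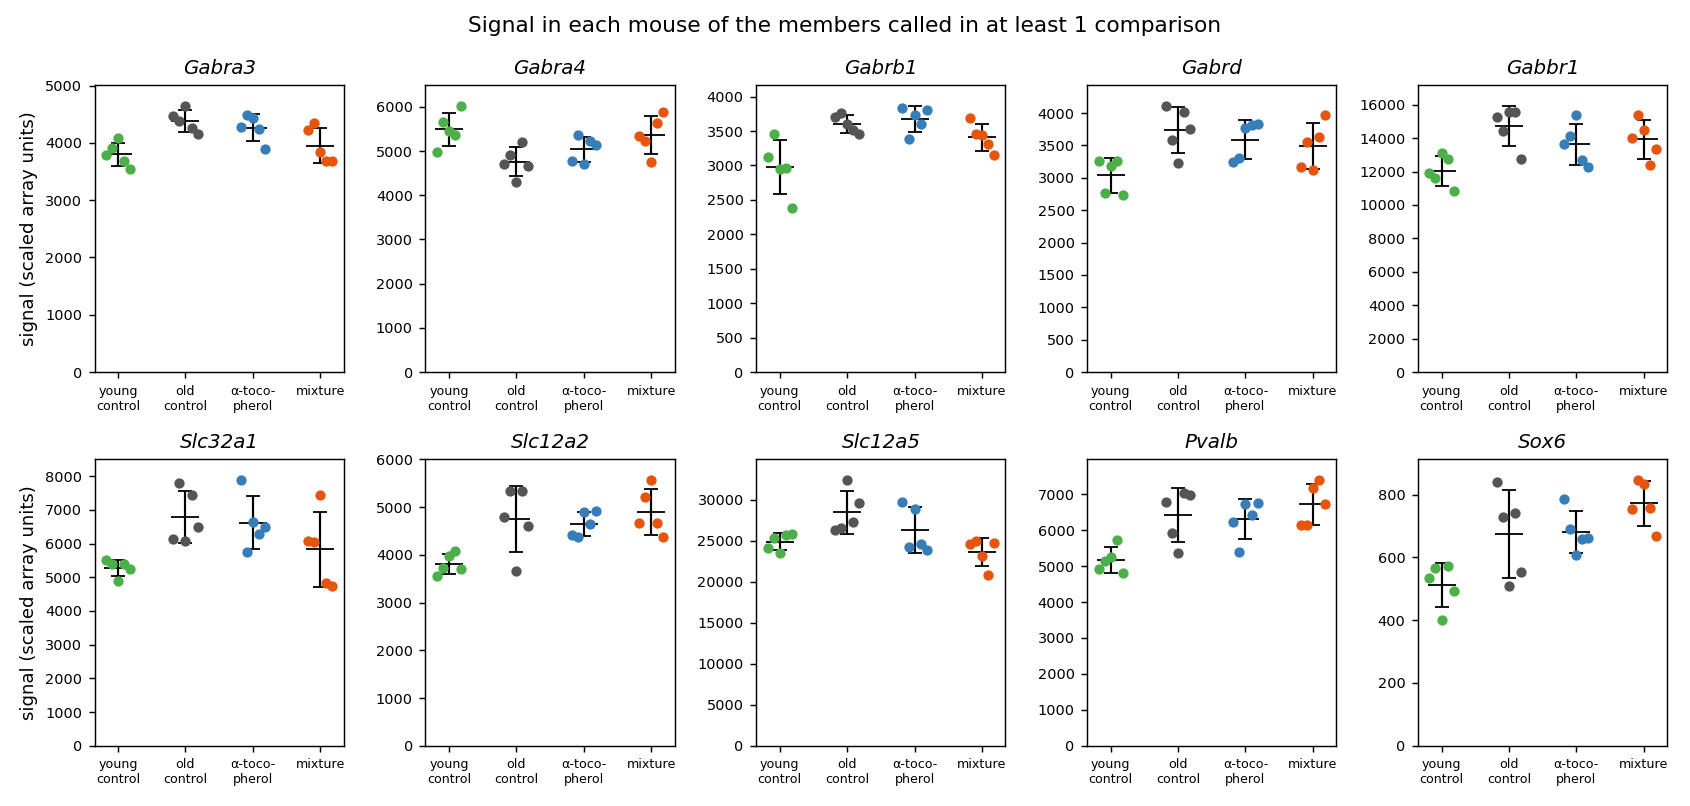
Array signal (scaled units, axis from 0) of the 10 genes called in at least 1 comparison, with one point per mouse and the mean ± SD of the 5 mice in each group. Gabra3 and Slc32a1 were higher in every old control than in every young control, and Slc12a5 was lower in every mixture mouse than in every old control.

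Among synthesis and release, the vesicular GABA transporter was called with age and the enzymes were not, and the difference between them was not tested. Slc32a1 had signals of 5507, 5400.5, 4889.9, 5379.9 and 5232 in the young controls and 6135, 7787, 6079, 7439 and 6502 in the old controls. All 5 old controls lay above the highest young control, and the difference was 0.35 ± 0.10 (1.28 times; limma adjusted p = 0.0172). Signals were 7887, 5761, 6651, 6272 and 6504 with α-tocopherol and 6088, 6034, 7433, 4841 and 4730.4 with the mixture, where the last 2 mice lay below every young control. Gad1, which makes most cortical GABA, read 20091, 21804, 20302, 20519 and 22319.9 in the young controls and 19050.1, 22706, 21508, 22296 and 19739 in the old controls. The old mice spread to both sides of the young ones, with a difference of 0.00 ± 0.06 (95% interval −0.12 to 0.12; limma adjusted p = 0.988). With the arrays brought to a common distribution instead, Gad1 was called lower with age, at −0.21 by quantile normalization (limma adjusted p = 0.00654) and −0.16 by cyclic loess (0.0281). In the supplemented mice Gad1 read 21875, 21121, 20868, 21083 and 19581 with α-tocopherol and 21388, 20282, 21180.3, 19182 and 18638 with the mixture, within or just below the range of the controls. Gad2, the decarboxylase tied to vesicles at terminals, read 3727, 4068, 4143, 4444 and 3358 in the young controls, 3492, 4741, 4594, 4254 and 3629 in the old controls, 3898, 4473, 5887, 3825 and 3332 with α-tocopherol and 4381, 5016, 6048, 3532 and 5323 with the mixture. Its 4 groups overlapped, with an age difference of 0.06 ± 0.14 (limma adjusted p = 0.771). Abat, the transaminase that breaks GABA down, differed by 0.27 ± 0.12 with age (limma adjusted p = 0.106) and Slc6a11, the GABA transporter of astrocytes, by −0.21 ± 0.21 (0.489), and neither was called. Abat was called higher with array medians set equal (0.41, limma adjusted p = 0.0267) and without young control 1 (0.36, 0.0326). On the mean over all its probe sets it was −0.12 (0.695).

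Of the 9 GABA-A subunits, 3 were called higher with age and 1 lower (44.4% called), against 12.4% of all genes higher and 10.4% lower. Whether this share differs from that of all genes was not tested. Gabra3, an α subunit, read 3789.6, 3907, 4079, 3684 and 3551 in the young controls and 4465, 4389, 4641, 4254 and 4147 in the old controls. Every old control exceeded every young control, and the difference was 0.20 ± 0.06 (limma adjusted p = 0.0227). The call was lost under cyclic loess (0.17, adjusted p = 0.061) and without young control 5 or old control 3 (0.18 in each case). The supplemented mice overlapped both control groups, at 4269, 4488, 4427, 4244 and 3891 with α-tocopherol and 4223, 4339, 3839, 3680.1 and 3676 with the mixture. Gabrb1, a β subunit, read 3122, 3459, 2954, 2958 and 2379 in the young controls, with the last mouse well below the rest, and 3708, 3756, 3595, 3514 and 3449.8 in the old controls. The highest young control lay just above the lowest old control, and the difference was 0.29 ± 0.08 (limma adjusted p = 0.00962). Gabrb1 read 3839.6, 3388, 3737, 3605 and 3809 with α-tocopherol and 3690.5, 3459.6, 3438, 3307 and 3153 with the mixture, and 4 of the 5 α-tocopherol mice exceeded every young control.

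Gabrd encodes the δ subunit of receptors outside the synapse, which carry a lasting, tonic inhibition. It read 3267, 2759, 3177, 3253 and 2730.4 in the young controls and 4106, 3583, 3229, 4011 and 3754 in the old controls, where only the lowest old mouse lay within the young range, a difference of 0.30 ± 0.08 (limma adjusted p = 0.0136). With α-tocopherol it read 3239.5, 3300.2, 3769.6, 3811 and 3833 and with the mixture 3174, 3561, 3122, 3631 and 3976, overlapping both control groups. Gabra4, an α subunit often found with δ, was the gene called in the opposite direction. It read 4989.5, 5648, 5452, 5370.1 and 6016 in the young controls and 4705, 4908, 4311, 5196 and 4657 in the old controls, overlapping in 1 mouse of each group, a difference of −0.21 ± 0.07 or 1.16 times lower (limma adjusted p = 0.0299). The call was lost without young control 2 or 5 or old control 1, 3 or 5, at differences of −0.17 to −0.20, and with array medians set equal (−0.07), where the median over all genes was 0.11. Gabra4 read 4776, 5353, 4712, 5224 and 5127 with α-tocopherol and 5349, 5235, 4756, 5644 and 5882 with the mixture, which spans both control groups. The uncalled subunits were Gabra2, Gabra5, Gabrb2, Gabrg1 and Gabrg3, whose age differences ran from −0.21 to 0.25. Gabrg1 was called higher with array medians set equal (0.39, limma adjusted p = 0.0445). Gabrb2, at −0.14 ± 0.07 (limma adjusted p = 0.15), was lower in every old control than in every young one, although it was not called. It was called lower under cyclic loess (−0.22, limma adjusted p = 0.0281) and was 0.00 with array medians set equal.

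Gabbr1, the GABA-binding subunit of the metabotropic GABA-B receptor, had the lowest adjusted p of the 30 genes in the age comparison. It read 11933, 11624, 13084, 12776 and 10834 in the young controls and 15292, 14427, 15568, 15550.2 and 12742 in the old controls. Only old control 5 lay within the young range, and the difference was 0.29 ± 0.07 (1.22 times; limma adjusted p = 0.00847). The call was lost with quantile normalization (0.17, adjusted p = 0.1003) and cyclic loess (0.16, 0.133). Gabbr1 read 13636, 14132, 15372, 12682 and 12291 with α-tocopherol and 14024, 15399, 14477, 12374 and 13348 with the mixture, overlapping the controls on both sides.

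The 2 chloride transporters and the scaffold gave different pictures. Slc12a2, the importer that raises internal chloride, read 3550.5, 3732, 3985, 4074 and 3706 in the young controls and 4788, 5338, 3664, 5343 and 4595 in the old controls. Old control 3 sat inside the young range and the other 4 above it, for a difference of 0.30 ± 0.09 (limma adjusted p = 0.0148). It read 4428, 4379.5, 4898, 4651 and 4912 with α-tocopherol and 4676, 5204, 5571, 4672 and 4378 with the mixture, above every young control in each case. Slc12a5, the neuronal exporter that keeps GABA inhibitory, read 24048, 25319, 23444, 25628 and 25830.4 in the young controls and 26292, 26506, 32386, 27306 and 29621 in the old controls. All old controls were above all young ones, with old control 3 the highest, yet the difference of 0.19 ± 0.07 was not called (limma adjusted p = 0.0634), and it was −0.09 under quantile normalization and 0.01 under cyclic loess. It was called higher with array medians set equal (0.33, limma adjusted p = 0.00477), with the 2 groups fitted alone (0.0424) and without old control 1 (0.22, 0.0485). Gphn, the scaffold protein gephyrin that holds GABA-A receptors at synapses, was lower in every old control (4040 to 5336) than in every young control (5585 to 5767). Its difference of −0.21 ± 0.08 was not called (limma adjusted p = 0.0622), and it was called lower under quantile normalization (−0.24, adjusted p = 0.0388) and cyclic loess (−0.27, 0.0279), and stood at −0.07 with array medians set equal.

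Pvalb, the calcium-binding protein of fast-spiking interneurons, was called higher with age. It read 4926, 5145, 5248, 5719 and 4815 in the young controls and 6782, 5924, 5364, 7044 and 6984 in the old controls, where only old control 3 lay within the young range. The difference was 0.31 ± 0.08 (1.24 times; limma adjusted p = 0.0104), with limma adjusted p-values up to 0.0486 over its alternatives. Pvalb, Slc12a2 and Gabrd kept their calls under the 11 alternatives that read the same probe set and in the 11 fits that left out mice. Slc12a2 and Gabrd lost theirs under both alternatives that read other probe sets, which could not alter Pvalb, with its single probe set. Pvalb read 6235, 5378, 6718, 6409 and 6749 with α-tocopherol and 6141, 6146, 7181, 7396 and 6717 with the mixture, and 1 of these 10 mice lay within the young range. The other interneuron proteins tested were calbindin (Calb1, 0.01 ± 0.07), calretinin (Calb2, −0.17 ± 0.19), the secreted protein Reln (0.11 ± 0.09) and neuronal nitric oxide synthase (Nos1, −0.01 ± 0.13), and none of the 4 was called.

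Of the 7 interneuron transcription factors, 1 was called with age (14.3%, against 22.8% of all genes). Sox6, which acts in the lineage that gives parvalbumin and somatostatin cells, read 534, 565, 399.9, 573 and 493 in the young controls and 839.5, 729.7, 508, 741 and 554 in the old controls. Old controls 3 and 5 lay within the young range and the other 3 well above it, for a difference of 0.37 ± 0.13 (limma adjusted p = 0.041). The call was lost without young control 1, 3 or 5 or old control 1, 2 or 4, at differences of 0.29 to 0.39. Without old controls 3 and 5 the difference was 0.58 (limma adjusted p = 0.00477). These are the old mice within the young range, so leaving them out had to widen it, and no support is drawn from this fit. Sox6 read 787, 690.4, 606, 659 and 663 with α-tocopherol and 754, 847, 834, 756 and 668 with the mixture, and all of these mice lay above the highest young control. Its brightest probe set carries the Affymetrix suffix for probes that can also bind other transcripts. Lhx6 had the widest age difference of the 30 genes, 0.41 ± 0.19, and was not called (limma adjusted p = 0.109), with a coefficient of variation of 21.5% among the young and 20.8% among the old controls. It was called higher with array medians set equal (0.55, limma adjusted p = 0.0223), where the median over all genes was 0.11. It was also called with the replicate number as a block in the fit (0.0192). Maf and the 4 Dlx genes ran from −0.24 (Dlx6) to 0.11 (Dlx5), all uncalled.

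**Figure D2:**
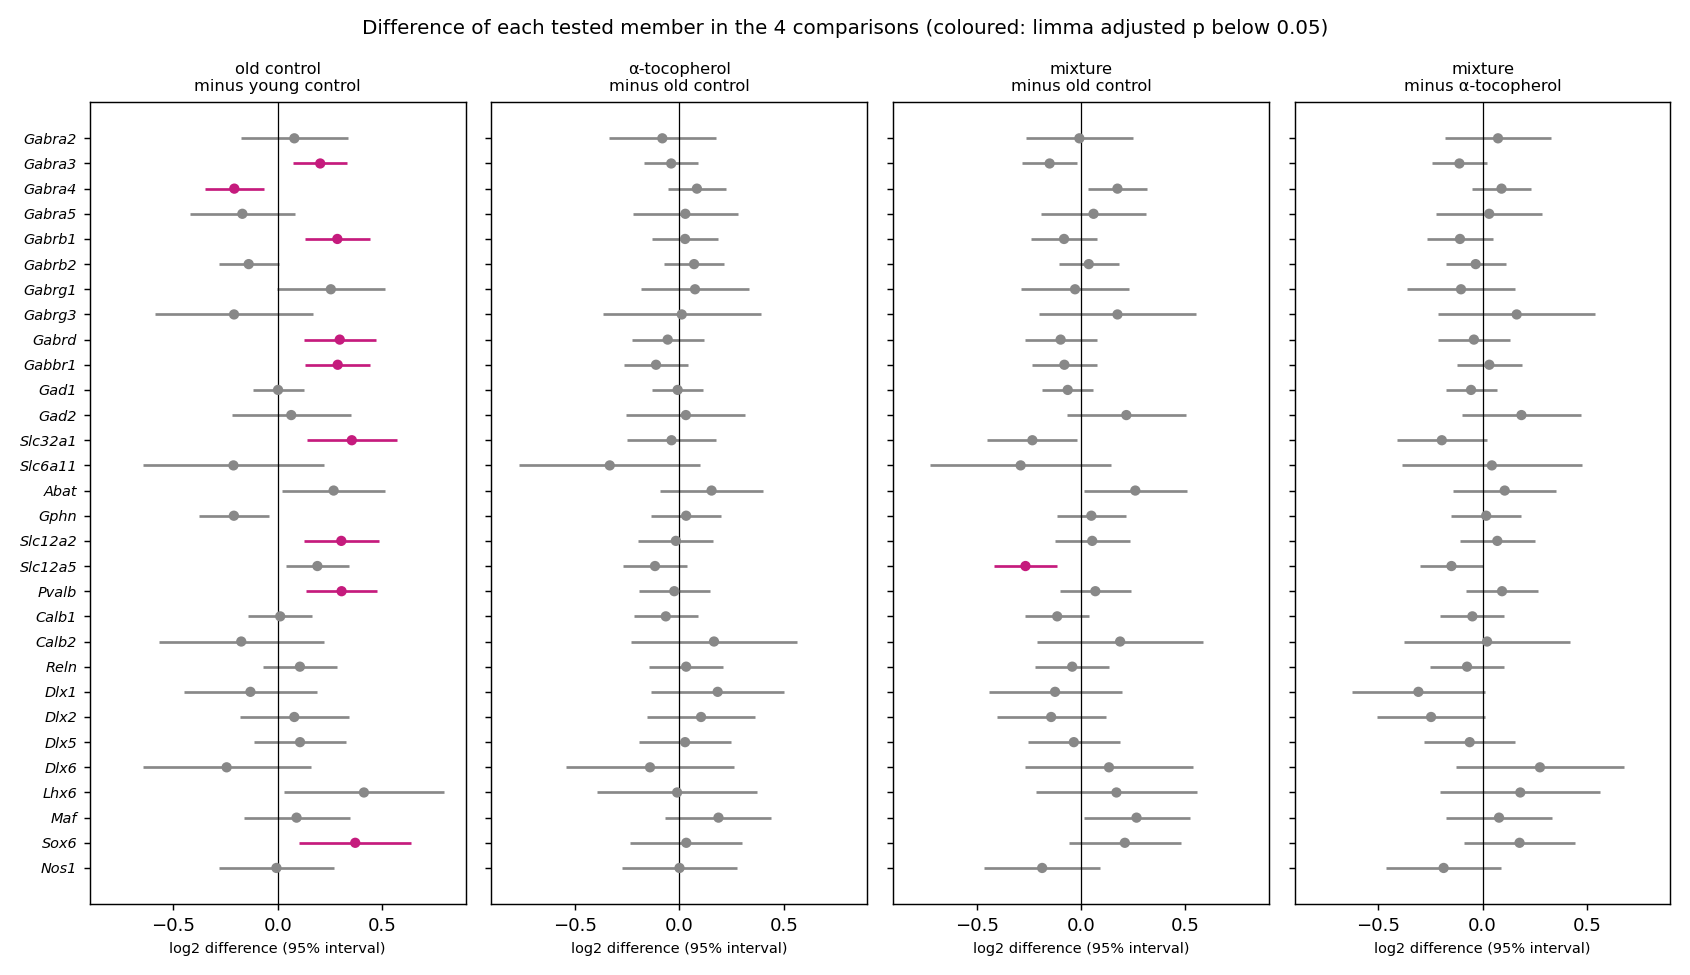
Log2 difference with its 95% interval for each of the 30 tested genes (rows) in the 4 comparisons (panels), with coloured points for limma adjusted p below 0.05. The age panel holds 8 coloured genes to the right of 0 and 1 to the left, the panel of the mixture against old control holds Slc12a5 alone, and both panels that involve α-tocopherol hold none.

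The age calls depended on which probe set was read. Of the 30 genes, 18 had more than 1 tested probe set, and in 13 of them at least 1 probe set had an age difference of the opposite sign to the brightest. The same share was not counted over all genes, so nothing particular to GABA genes is read from it. Gabrd gave 0.30 on the brightest and −0.40 on the other, Gabra4 gave −0.21 and 0.24, Slc12a2 gave 0.30, −0.22 and 0.00, and Gabbr1 gave 0.29, −0.18, 0.16 and −0.42. Gabrb1 gave 0.29, 0.18 and −0.17. In each of these genes, which carry a call above, at least 1 probe set points in the opposite direction to the brightest. Gabra3 gave 0.20 and 0.40 and Sox6 gave 0.37, 0.07 and 0.18, so that their probe sets share a sign. Pvalb and Slc32a1 had a single tested probe set each. In the test over all probe sets, 5 uncalled genes and none of the 9 called genes were called on another probe set, with Maf at 0.71 (limma adjusted p = 0.00103) and 0.57 (0.00737), Slc12a5 at 0.85 (0.0328), Gabrg1 at −0.65 (0.00709) and Gphn at −0.31 (0.00591). The fifth was Gabrb2, lower on 1 of its 5 probe sets at −0.34 (limma adjusted p = 0.0018). In that test 18.9% of all probe sets were called. Maf, with 4 tested probe sets, gave 0.09 on the brightest and −0.47 on the lowest. Which part of each transcript a probe set reads was not analysed here.

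**Figure D3:**
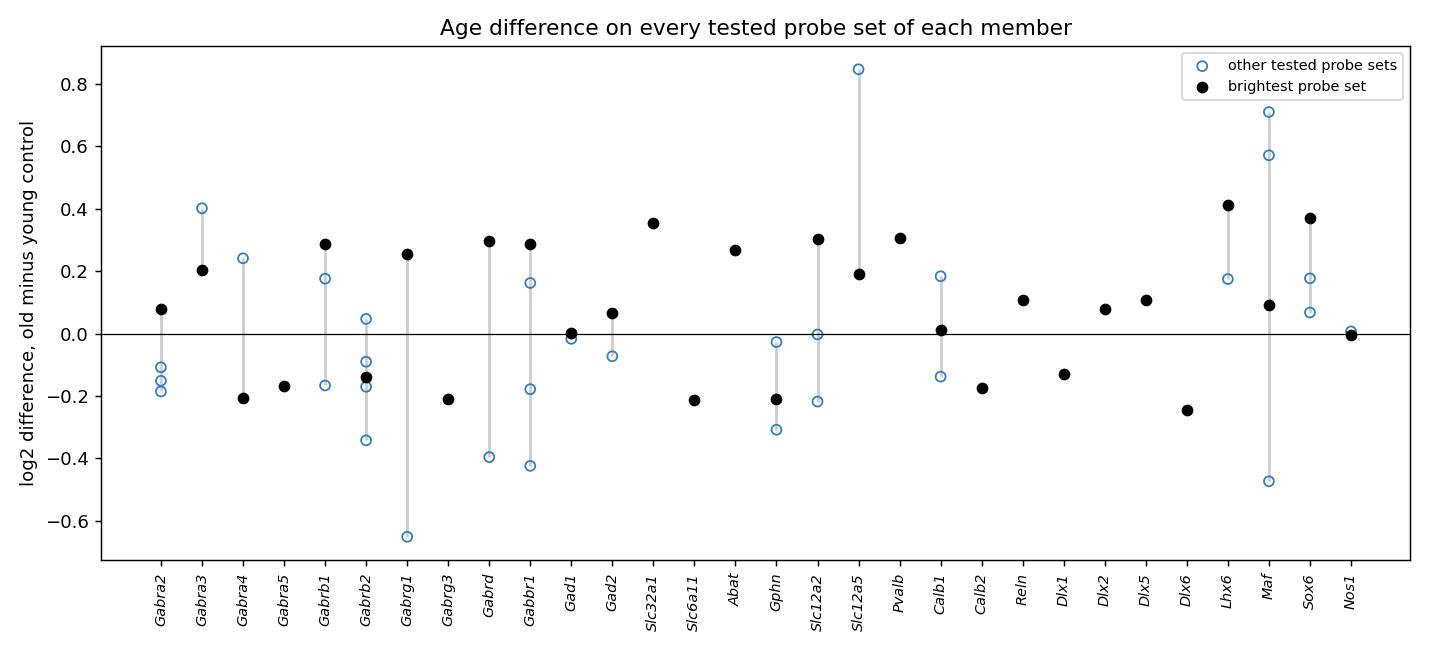
Age difference (log2, old control minus young control) on every tested probe set of each gene, with the brightest filled and the others open, joined by a grey line. Maf and Gabrg1 show the widest spans, and in 13 of the 18 genes with more than 1 tested probe set the points lie on both sides of 0.

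Other measures moved with age beside these genes. The ratio of the 3′ to the 5′ β-actin control probe sets, which rises as RNA is broken or copied less fully, averaged 1.52 ± 0.14 (SD, n = 5) in the young controls, 2.04 ± 0.34 in the old controls, 1.67 ± 0.39 with α-tocopherol and 1.43 ± 0.14 with the mixture. With this ratio added to the fit, 3 of the 9 age calls were kept, Pvalb (0.33, limma adjusted p = 0.0486), Slc12a2 (0.37, 0.0354) and Gabrd (0.38, 0.0263), while 8.67% of all genes were called. The other 6 age calls had adjusted p-values from 0.0809 to 0.2998. The signal of the 18S ribosomal control ran from 421 to 794 in the young controls, from 1184 to 2068 in the old controls, from 655 to 2504 with α-tocopherol and from 708 to 1138 with the mixture. The marker counts that follow stand beside 12.4% of all genes called higher with age and 10.4% called lower, without the ratio in the fit. Of the pan-neuronal markers 6 of 10 were higher with age, and their summed signal ran from 141906 to 148253 in the young controls and from 153462 to 178967 in the old controls. All 8 astrocyte markers were higher (summed signal 70683 to 73685 young, 92390 to 106573 old), as were 4 of 6 oligodendrocyte markers and 5 of 7 microglial markers, with 1 microglial marker lower. Excitatory neuron markers had 3 of 11 higher and 1 lower. The striatum, which is rich in GABA neurons, lies beneath the cortex, and 0 of its 8 markers were called, with summed signals of 42325 to 51446 young and 38531 to 51400 old. Of the 5 olfactory bulb markers, 0 were called with age. Some markers of 3 further regions were lower with age: 2 of 3 of the cerebellum (Zic1 at −0.76 and Pcp2 at −0.55), 2 of 5 of the thalamus (Prkcd at −0.53 and Lef1 at −0.45) and 1 of 6 of the choroid plexus (Kl at −1.05). Their summed signals were 3522 to 4277 young and 1918 to 3457 old for the cerebellum, 4223 to 5253 and 3266 to 4243 for the thalamus, and 28262 to 42113 and 10157 to 52029 for the choroid plexus. No marker of these lists was at 0, and the part of any of these measures in the age differences was not tested. In whole tissue, more cells of a type and more RNA per cell cannot be told apart.

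Wider lists around these genes were counted in the same way. Among 27 tested genes of other GABA signalling, 6 were higher with age and 0 lower, with a median difference of 0.11, and 12.4% of all genes were higher. They were Shisa7, an auxiliary GABA-A subunit (0.72 ± 0.12, limma adjusted p = 0.000333), Slc38a1, a glutamine carrier (0.33 ± 0.08, 0.00478), Lhfpl4, a partner of synaptic GABA-A receptors (0.50 ± 0.13, 0.00755), and the trafficking genes Gabarap (0.22), Gabarapl1 (0.23) and Nsf (0.19). Among 30 tested genes of other interneuron markers, 0 were higher and 5 lower, with a median of −0.06, and 10.4% of all genes were lower. They were Igf1 (−0.67 ± 0.15, limma adjusted p = 0.00368), the receptor gene Kit (−0.34 ± 0.09, 0.00948), the serotonin receptor subunit Htr3a (−0.38 ± 0.11, 0.014), the chromatin factor Satb1 (−0.25) and Ndnf of layer 1 cells (−0.35). The shares called, 22.2% and 16.7%, were near the 22.8% of all genes, and the difference between the lists was not tested. The counts moved with the scaling, to 3 higher and 0 lower against 0 higher and 6 lower by quantile normalization and by cyclic loess, and to 11 higher and 0 lower against 1 higher and 1 lower with array medians set equal, where 23.3% of all genes were higher and 3.23% lower.

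α-Tocopherol alone left no GABA gene called. Against old controls, 0 of the 30 genes passed the test, as did 0% of all genes, and 0 of the 30 had an unadjusted limma p below 0.05, against 753 of all genes (5.64%). The differences ran from −0.33 (Slc6a11) to 0.19 (Maf), with a median of 0.02 (−0.01 over all genes) and a lowest limma adjusted p of 0.888. The 95% interval lay within 1.5-fold either way for 29 of the 30 genes, the exception being Slc6a11 at −0.77 to 0.10 on the log2 scale. Gad1 differed by −0.01 ± 0.06 (95% interval −0.13 to 0.11), Pvalb by −0.02 ± 0.08 (−0.19 to 0.15) and Slc32a1 by −0.04 ± 0.10 (−0.25 to 0.18). The groups overlapped for all 30 genes, against 0.801% of all genes whose groups lay apart. Misses of the threshold do not show that the groups were alike.

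The mixture of tocopherols gave 1 call against old controls, the chloride exporter Slc12a5. It was lower, 0 genes were higher, and the 3.33% compares with 4.52% of all genes (1.36% higher and 3.16% lower). Slc12a5 read 24544, 24901, 23173, 20747 and 24710.3 with the mixture, all below the lowest old control at 26292, and 29675, 24245, 28906, 24524 and 23885 with α-tocopherol, where 2 mice reached the old control range. It was the only one of the 30 whose groups lay apart, against 5.79% of all genes (2.09% higher and 3.7% lower in every mixture mouse). The difference was −0.27 ± 0.07 or 1.2 times lower (limma adjusted p = 0.0405). The call was lost without old control 3, 4 or 5 or mixture mouse 3, 4 or 5, at differences of −0.22 to −0.28, and the sign turned to 0.05 under quantile normalization and to 0.16 on the other probe set. Adjusted for the β-actin ratio it was −0.14 (limma adjusted p = 0.858), in a fit where 0% of all genes were called. Of the pan-neuronal markers, 5 of 10 were also lower with the mixture (summed signal 129803 to 145742). Of the region markers, 1 of 6 of the choroid plexus (Kl, 1.48), 1 of 3 of the cerebellum (Zic1, 0.66) and 1 of 5 of the thalamus (Lef1, 0.60) were higher with the mixture. Of the 8 striatal and 5 olfactory bulb markers, 0 were called. The β-actin ratio and the 18S signal were lower in every mixture mouse than in every old control. The part of these measures in the difference was not tested.

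In the same comparison 5 further genes had an unadjusted p below 0.05 in limma and an adjusted p above the threshold. They were Gabra4 (0.17 ± 0.07, adjusted p = 0.146), Gabra3 (−0.15 ± 0.06, 0.183), Slc32a1 (−0.23 ± 0.10, 0.217), Abat (0.26 ± 0.12, 0.232) and Maf (0.27 ± 0.12, 0.235). Counting Slc12a5, 6 of 30 had an unadjusted limma p below 0.05, against 19.1% of all genes. The age differences of Gabra4 (−0.21), Gabra3 (0.20), Slc32a1 (0.35), Abat (0.27) and Maf (0.09) stand beside these values, and both comparisons share the old controls, so that their signs are not independent. Of the 27 tested genes of the wider GABA signalling list, 3 were called with the mixture (11.1%), against 4.52% of all genes (1.36% higher and 3.16% lower). Trak2, an adaptor for mitochondrial transport, was higher (0.40 ± 0.08, limma adjusted p = 0.00917), and Nsf (−0.33 ± 0.07, 0.0103) and Gabarapl1 (−0.28 ± 0.07, 0.0255) were lower. None of the 30 other interneuron genes was called with the mixture.

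Between the supplements, where the dose of α-tocopherol differed as well as the presence of γ-tocopherol, 0 of the 30 genes and 0% of all genes were called, with 0 of the 30 and 1163 of all genes (8.71%) at an unadjusted limma p below 0.05. The groups overlapped for all 30, against 1.23% of all genes whose groups lay apart (0.861% lower with the mixture). Differences, mixture minus α-tocopherol, ran from −0.31 (Dlx1) to 0.27 (Dlx6), with a lowest limma adjusted p of 0.585. The interval lay within 1.5-fold for 28 of 30, and the exceptions were Dlx1 (−0.63 to 0.01) and Dlx6 (−0.13 to 0.68), homeobox genes of low signal. Slc32a1 differed by −0.20 ± 0.10 (−0.41 to 0.02) and Pvalb by 0.09 ± 0.08 (−0.08 to 0.26).

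The genes differed in how steady they were from mouse to mouse. In the young controls the coefficient of variation of the signal ran from 1.30% for Gphn and 2.99% for Gabrb2 to 27.6% for Dlx6 among the tested genes, and Gad1 stood at 4.72%. In the old controls the lowest were Gabrb2 (3.34%) and Gabrb1 (3.56%) and the highest Calb2 (32.2%). Slc6a11 varied by 22.8% to 34.0% in each of the 4 groups, and Erbb4, below the limit, by 41.4% to 92.4%.

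**Figure D4:**
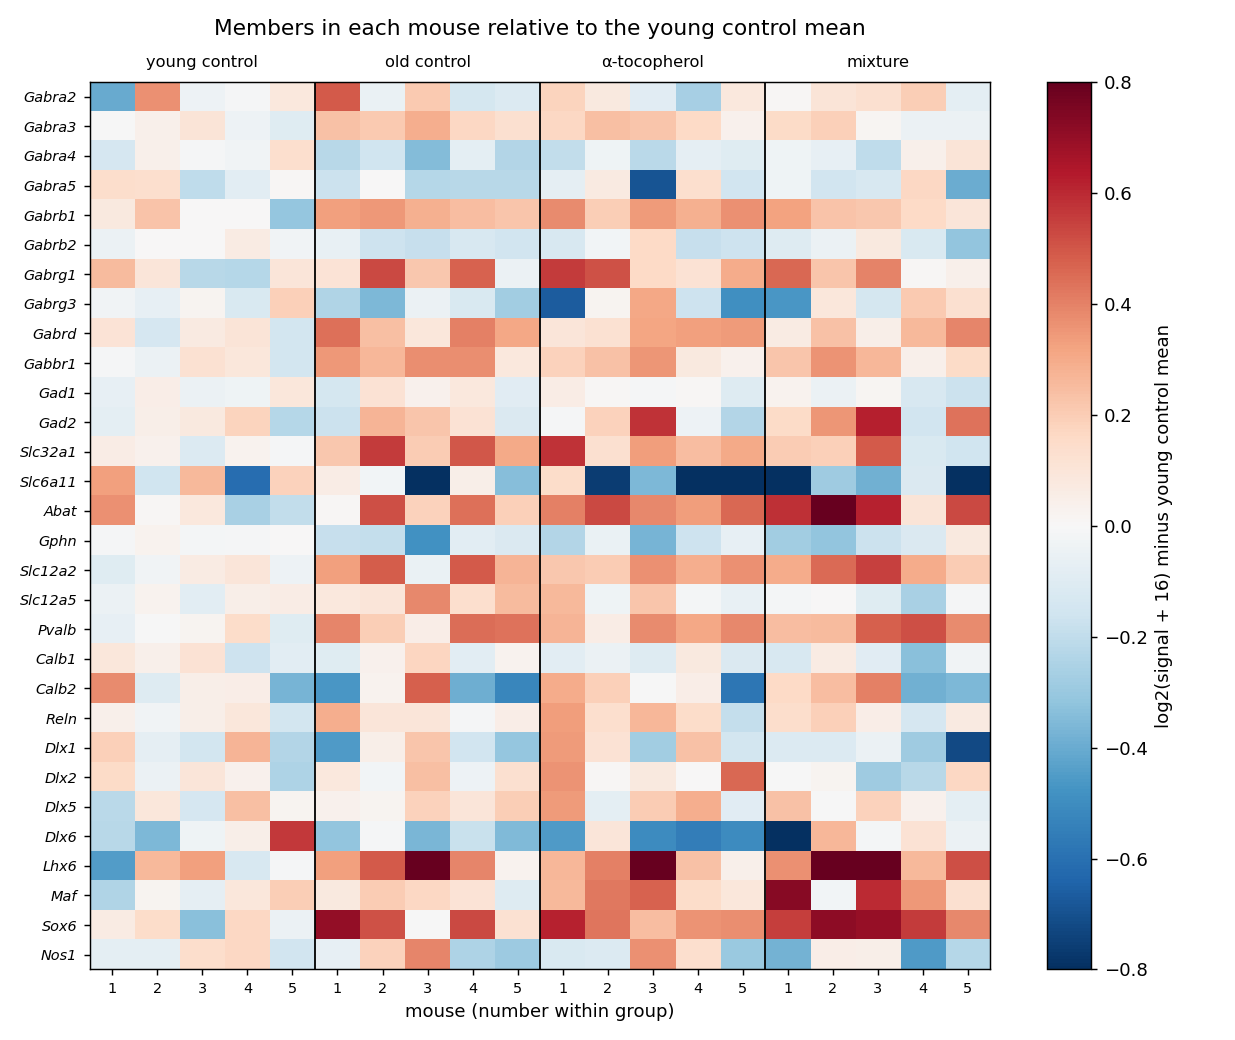
Difference of each mouse (columns, by group) from the young control mean on the log2(signal + 16) scale for each of the 30 tested genes (rows), coloured blue below and red above, with the colour scale ending at −0.8 and 0.8. Rows of Pvalb, Slc32a1, Slc12a2 and Gabrb1 are red in nearly all old mice, while Gad1 stays pale and Slc6a11, Dlx6 and Lhx6 vary between mice of one group.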

How the data were processed

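The authors deposited a table of linear signal intensity for 45101 probe sets on 20 arrays, made with GCOS per the submitters' processing notes, with no version stated. Per the labels' protocols, poly(A) RNA was primed with oligo-dT and labelled as cRNA. How background and probes were combined was not stated in the sources used here. The deposited signal was used as given, since every array had been scaled to a common trimmed mean, so a shift of all transcripts together cannot be seen. A scaling to equal array medians moved the median age difference of all genes from −0.02 to 0.11.

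Of the probe sets, 64 were controls, 34945 had 1 gene symbol, 932 several and 9160 none, and 34741 of those with 1 symbol were matched to RefSeq GRCm38.p6. For each gene the brightest probe set within the top 60% by mean signal was taken, giving 13351 genes. Limma 3.58.1 in R 4.3.3 was fitted to log2(signal + 16) over all 20 arrays with an intensity trend, two-sided, with Benjamini-Hochberg adjustment over all genes. The pseudocount makes fold changes of low genes too small. The procedure was tested on simulated data with known age differences. It recovered 8 of 50 genes changed by 0.3 on the log2 scale, 34 of 50 at 0.6 and 48 of 50 at 1. Few genes were changed in the simulation, so recovery in the data may differ. Differences as small as most of those given here can be missed. Each mouse had its own array, per the labels, so p-values measure the spread between mice, and 5 mice a group limit the precision. No 2 arrays were identical, and pairs correlated at 0.947 to 0.973.

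The genes, lists and alternatives were chosen with earlier results of these data known. Genes called in any comparison and Gad1, Gad2, Slc32a1 and Pvalb are given in every mouse, and up to 6 called genes of each wider list are named, by smallest p. Others that are named were chosen after their values were seen. Alternatives covered pseudocount, filter, normalization, probe set choice, samples in the fit, the trend, a replicate block, the β-actin ratio and mice left out, and the scaling of the wider lists was added after seeing the data. Promoter letters were taken from RefSeq.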

Additional observations from a re-analysis of the deposited data

Results flagged for a closer look

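In 4 of 120 sets of 5 mice (30 genes in 4 groups) 1 mouse lay far from the other 4, judged by its gap to the nearest mouse over the range of the group, and chance gives such a gap in about 1 in 20 sets. Gabra5, an α subunit mostly outside synapses, read 2174 in old control mouse 2 and 1853 to 1929.6 in the other old controls (gap over range 0.746). Gphn, the receptor scaffold, read 4040 in old control mouse 3 and 4956 to 5336 in the others (0.734). Dlx6, the homeobox gene of interneuron precursors, read 448 in α-tocopherol mouse 2 and 279 to 301 in the others (0.844). In the mixture group Dlx6 read 221 in mouse 1 and 405 to 506 in the others (0.727).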

How the results depend on the processing

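Counts of called genes among the 30 are given here. For age (9), pseudocounts of 1 and 64, no filter, a top 40% filter, quantile, cyclic loess, equal medians, a fit of the 2 groups alone, no trend and old controls 3 and 5 left out gave 7 to 12. The share of all genes called ran from 15.4% to 27.3% in these settings, against 22.8%. The mean over all probe sets of a gene gave 2, of which 1 (Pvalb, with a single probe set) was among the 9, and the second brightest probe set gave 4 of 18 genes, 0 of them among the 9. With the mean 15.6% of all genes were called, and with each probe set tested on its own 18.9% of all those probe sets. The β-actin covariate gave 3, all among the 9, with 8.67% of all genes called. Equal medians gave 12 higher and 0 lower, with 87.8% of all called genes higher, against 54.5%, and for the mixture 4.87%, against 30%, or 42.9% by cyclic loess. For the mixture (1), the count was 0 under no filter, quantile, cyclic loess, the mean over all probe sets, the 2 groups alone, no trend, the β-actin covariate and without old controls 3 and 5. The share of all genes called fell as well, from 4.52% to 2.3% with no filter, 0.614% by quantile and 0.682% by cyclic loess. It was 1.34% on the mean over all probe sets, 2.39% with the 2 groups alone and 2.33% with no trend. It was 0% with the β-actin covariate and without old controls 3 and 5. On the second brightest probe set the 1 call was Gad1, higher (0.49, limma adjusted p = 0.0455), with 3.62% of all probe sets called in that test. Leaving out 1 mouse gave 6 to 9 for age, the lowest without young control 5, and 0 to 1 for the mixture. Of all genes, 18% to 21% were called for age in these fits and 1.39% to 4.44% for the mixture. Both comparisons with α-tocopherol gave 0 in all settings. The mean over all probe sets includes those below the test limit, and of the 4 probe sets of Slc32a1 only 1 was tested. This mean turned the age sign of Slc32a1 (−0.10), Gabra4 (0.017), Gabrb1 (−0.062), Gabrd (−0.0496) and Gabbr1 (−0.038), and the second brightest probe set that of Gabbr1 (−0.18), Gabra4 (0.24), Slc12a2 (−0.22) and Gabrd (−0.40). Slc12a5 with the mixture turned to 0.053 under quantile and 0.16 on its second probe set. The cause was not tested. A replicate block gave 11 calls for age and 1 for the mixture, with 24.5% and 5.21% of all genes called. The main fit did not pair mice by number. With group means removed, same-numbered mice of 2 compared groups correlated at −0.124 to 0.196, with 4 of 20 pairs over 0.1. In 6 of these 20 pairs the mouse of the first group correlated best with its own number among the 5 mice of the second. These values do not settle whether the numbers carry a pairing. Dim genes such as Erbb4 could not be tested at this signal.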
